A study of Mus musculus with 2 samples.

Results

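The 10 genes described here belong to the mammalian circadian clock, as parts of its feedback loops or as an output of them. They are Arntl, Per1, Per2, Per3, Cry1, Cry2, Nr1d1, Nr1d2, Ciart and Dbp, out of 20884 gene symbols read on the arrays. They were chosen by name, and their probes were found through the RefSeq transcript that the array files give for each spot. All 10 had a probe, 9 of them a single one and Dbp a pair, so 11 probes were read.

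Total RNA came from cells grown out of the epididymal fat of male C57/BL mice and was labelled with Cy3 on 1 single-colour Agilent array per population. SPAD are differentiated small proliferative adipocytes, grown from cells that floated at a brief spin of collagenase-digested fat and sedimented at a longer one. SVCD are differentiated stromal vascular cells, grown from the lower phase of the brief spin. Both were grown to 90% confluency, kept for 3 days in medium with insulin, dexamethasone and IBMX, and then kept for 2 days in DMEM. No allele, transgene or further treatment is named for either, and the labels give neither the number of animals or cultures behind an RNA nor the hour of collection. A single array stood for each population, so nothing could be tested, no p-value is given, and no difference has a replicate check.

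In the clock, the proteins of Arntl (BMAL1) and Clock pair up and switch on genes that carry an E-box, among them the Per, Cry, Nr1d, Ciart and Dbp genes. PER and CRY proteins then return to the nucleus and block the pair, while the REV-ERB receptors made from Nr1d1 and Nr1d2 repress Arntl and compete with the ROR receptors that activate it. The levels of most of these transcripts rise and fall over the day in fat as in other tissues, and glucocorticoids such as dexamethasone can reset the rhythm of cultured cells.

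The clock genes did not all differ in one direction: at a limit of 2-fold, 4 members were higher in SPAD, 1 was lower, 4 lay within the limit, and Per3 was well above background on neither array. The higher members were the cryptochrome gene Cry2, the repressor gene Ciart and both REV-ERB genes, and the lower one was Per2. The 4 higher members are 44.4% of the 9 members well above background on at least 1 array, beside 16.3% of all 15626 such genes (2547 genes). The 1 lower member is 11.1% of the 9, beside 14.1% of all such genes (2206 genes). The median log2 difference, SPAD minus SVCD, was 0.84 over the 9 members and 0.06 over all 15626 genes. In RNA of whole cultures, fewer cells of a type and less RNA per cell cannot be told apart.

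These log2 differences are taken after each array was scaled to the 75th percentile of its probes, which was 622 for SPAD and 678 for SVCD in units of intensity. The error given with a difference is the SD that repeat spots of 1 probe would give it. It covers neither culture nor labelling differences. Of the 8 members well above background on both arrays, 7 had a higher scaled signal in SPAD and 1, Dbp, a lower one. All 8 differences were larger than this spot error, and 7 were more than 2 times as large, the exception being Cry1. The scanner software's own error ran from 0.20 to 0.32 for these 8, against 0.08 to 0.59 for spot error. For bright probes it was the larger one, as for Arntl (0.20 against 0.08). All 8 differences were larger than 2 scanner errors. Scaling to the spike-in controls moved the median log2 difference of all genes on both arrays from 0.07 to -0.77, and the share of higher genes among those at least 2-fold apart from 53.6% to 14.4%. That scaling lowered every difference by the same 0.84, so the differences of the clock genes from each other are given as well. Under it, 3 members were higher past 2-fold and 2 lower, beside 6.44% and 38.3% of all genes. Under normexp it was 3 and 0, beside 8.79% and 9.66% of all genes.

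**Figure D1:**
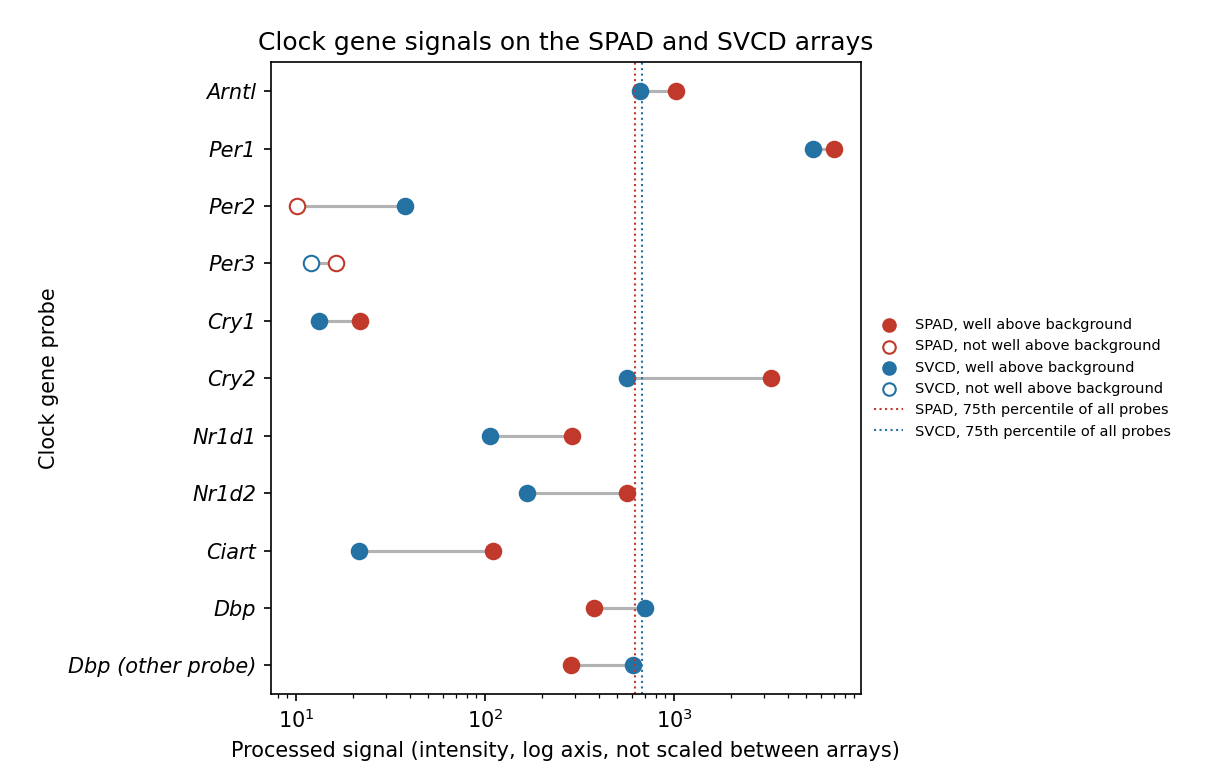
Processed signal of each clock gene probe (log axis, intensity not scaled between arrays) on the SPAD array (red) and the SVCD array (blue), 1 array per group, with open circles for signals not well above background and dotted lines at the 75th percentile of all probes. Cry2, Ciart, Nr1d1 and Nr1d2 have their red point well to the right of the blue one, whereas Per2 and both Dbp probes have it to the left.

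All members but Per2 had a promoter in the RefSeq table (build GRCm38.p6, 250 bases before to 50 after a gene's start), and 11 promoters were read because Arntl and Per1 have a pair of starts each. Each was searched on both strands for the E-box CACGTG, bound by BMAL1 and CLOCK, for the D-box TTATGTAA or TTACGTAA, bound by DBP and its relatives, and for the element TAGGTCA or TGGGTCA, bound by ROR and REV-ERB. The cyclic AMP response element TGACGTCA was searched too and was in no member's window. An E-box was found for Ciart, Cry1 and Per1, a D-box for Per3, and a ROR and REV-ERB element for Arntl. The windows of Cry2, Nr1d1, Nr1d2 and Dbp held none of these letters. Sites outside the windows or with other letters were not searched. Of all 32851 promoters in the table, 7.15% hold the E-box, 1.06% the D-box, 6.45% the ROR and REV-ERB element and 1.79% the cyclic AMP response element. The 5 promoters with a match are shown, since they carry the letters through which these genes are known to be linked. Capitals mark the matches and the rest is in lower case.
Ciart promoter, chr3:95882179-95882478, minus strand: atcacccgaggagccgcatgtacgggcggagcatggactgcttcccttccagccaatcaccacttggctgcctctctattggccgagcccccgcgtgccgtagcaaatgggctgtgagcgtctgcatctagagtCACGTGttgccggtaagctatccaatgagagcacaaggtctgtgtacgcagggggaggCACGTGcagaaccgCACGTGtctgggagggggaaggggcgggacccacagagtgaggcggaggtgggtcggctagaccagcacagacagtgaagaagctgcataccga
Cry1 promoter, chr10:85185005-85185304, minus strand: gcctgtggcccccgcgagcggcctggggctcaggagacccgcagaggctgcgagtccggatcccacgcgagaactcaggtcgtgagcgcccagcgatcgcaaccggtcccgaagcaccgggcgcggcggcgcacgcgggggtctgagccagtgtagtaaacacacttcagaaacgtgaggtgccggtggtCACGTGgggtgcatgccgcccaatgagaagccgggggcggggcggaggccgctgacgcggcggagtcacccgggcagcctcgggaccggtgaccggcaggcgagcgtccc
Per1 promoter, chr11:69098699-69098998, plus strand: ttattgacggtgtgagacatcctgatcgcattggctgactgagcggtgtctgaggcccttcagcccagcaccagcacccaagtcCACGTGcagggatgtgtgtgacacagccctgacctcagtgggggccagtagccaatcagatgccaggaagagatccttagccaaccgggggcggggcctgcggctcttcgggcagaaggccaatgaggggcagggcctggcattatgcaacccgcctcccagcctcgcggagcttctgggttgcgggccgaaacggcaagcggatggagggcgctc
Per3 promoter, chr4:151044616-151044915, minus strand: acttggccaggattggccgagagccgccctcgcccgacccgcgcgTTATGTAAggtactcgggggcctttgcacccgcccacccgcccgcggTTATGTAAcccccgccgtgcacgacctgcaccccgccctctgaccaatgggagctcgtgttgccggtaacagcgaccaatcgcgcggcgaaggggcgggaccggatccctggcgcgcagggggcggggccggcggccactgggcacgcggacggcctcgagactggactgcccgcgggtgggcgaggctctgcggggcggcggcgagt
Arntl promoter, chr7:113207261-113207560, plus strand: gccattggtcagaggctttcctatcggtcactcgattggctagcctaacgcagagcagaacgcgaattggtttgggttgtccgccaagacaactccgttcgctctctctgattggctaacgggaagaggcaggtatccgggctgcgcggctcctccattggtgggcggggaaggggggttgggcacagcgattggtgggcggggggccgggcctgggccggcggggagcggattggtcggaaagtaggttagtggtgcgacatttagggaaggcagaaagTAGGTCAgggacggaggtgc
The matches start 44, 58 and 116 bases before the start site in Ciart, 60 in Cry1 and 166 in Per1. They start 158 and 205 bases before it in Per3 and 30 bases after it in Arntl. A match describes the letters only, and none of these arrays measured binding.

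Arntl encodes BMAL1, the activator without which the clock stops. Its signal was 1023 in SPAD and 658 in SVCD, a log2 difference of 0.76 ± 0.08, which is within 2-fold. Of the genes on both arrays, 20.0% differed at least as far in the same direction. Clock, its partner, was close to it, with 948 in SPAD and 560 in SVCD (0.89 ± 0.08). The difference of Clock exceeded that of Arntl by 0.12 ± 0.11 on the log2 scale, about the size of its error. With spike-in scaling Arntl was at -0.08, its direction turned, and Clock at 0.05. Npas2, which can stand in for Clock, and Arntl2, a close relative of Arntl, were well above background on neither array.

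The Per genes encode the PERIOD repressors. Per1 is also a direct glucocorticoid and cyclic AMP target. Its signal was 7046 in SPAD and 5426 in SVCD, a log2 difference of 0.50 ± 0.08. This was within 2-fold, and it became -0.34 with spike-in scaling. Per2 had a signal of 10.2 in SPAD, not well above background, and 37.5 in SVCD. Set against the lowest SPAD signal called well above background (10.8), it was 3.19-fold lower in SPAD, a bound of -1.67 on the log2 scale. That bound is not firm, since Per3 at 16.3 in SPAD was not called well above background. With the normexp background correction, which adds a constant to every signal, the bound was -0.60, short of 2-fold. Per3 had 16.3 in SPAD and 12.0 in SVCD, neither of them well above background, so no fold is given.

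The cryptochromes, light-insensitive in mammals, are the strongest repressors of the BMAL1 and CLOCK pair. Cry2 had a signal of 3260 in SPAD and 565 in SVCD, which made it 6.29-fold higher in SPAD. Its log2 difference of 2.65 ± 0.08 was the largest among the members, and 2.33% of the genes on both arrays differed at least as far upward. It was 1.81 with spike-in scaling and between 2.47 and 2.67 under the other 6 alternatives. Cry1 had a signal of 21.8 in SPAD and 13.3 in SVCD, both dim. The lowest signal called well above background was 10.8 for SPAD and 8.60 for SVCD. Its log2 difference of 0.84 ± 0.59 was 1.43 times the error, and it was 0.03 with normexp and 0.0047 with spike-in scaling. Cry2 thus exceeded Cry1 in its SPAD to SVCD ratio 3.51-fold, a log2 gap of 1.81 ± 0.60.

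Ciart (Chrono) encodes a further repressor of the pair, and its promoter held the 3 E-boxes shown above. Its signal was 111 in SPAD and 21.5 in SVCD, 5.63-fold higher in SPAD with a log2 difference of 2.49 ± 0.44. Of the genes on both arrays, 2.73% differed at least as far upward. The SVCD signal was dim, and with normexp the log2 difference was 0.84, short of 2-fold, whereas with spike-in scaling it was 1.65.

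Nr1d1 and Nr1d2 encode REV-ERB alpha and beta, nuclear receptors that sense haem. Nr1d1 is known to be induced as preadipocytes turn into fat cells. Nr1d1 had a signal of 287 in SPAD and 106 in SVCD, 2.96-fold higher in SPAD (1.57 ± 0.15). Nr1d2 had 562 in SPAD and 166 in SVCD, 3.69-fold higher (1.88 ± 0.09). Both receptor genes were thus higher in SPAD, and the gap between them, 0.32 ± 0.17, was under 2 times its error. With spike-in scaling Nr1d2 stayed past 2-fold at 1.04, and Nr1d1 came to 0.73.

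Dbp, a classic output of the clock, encodes a PAR bZIP activator that binds D-boxes, such as those found in the Per3 promoter. Its brighter probe read 376 in SPAD and 700.3 in SVCD, a log2 difference of -0.77 ± 0.09. Its other probe read 286 in SPAD and 606 in SVCD, a difference of -0.96 ± 0.09. Both probes were lower in SPAD and both fell short of 2-fold, while with spike-in scaling the brighter one reached -1.61. Tef, the relative of Dbp in the same family, differed in the other direction, with 6687 in SPAD and 3274 in SVCD (2.23-fold higher). So did Nfil3, which represses through the same D-boxes, with 3932 in SPAD and 1875 in SVCD (2.29-fold higher). With spike-in scaling Tef and Nfil3 were at 0.32 and 0.35. Hlf, the third PAR bZIP gene, was not well above background in SPAD and read 13.1 in SVCD.

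**Figure D2:**
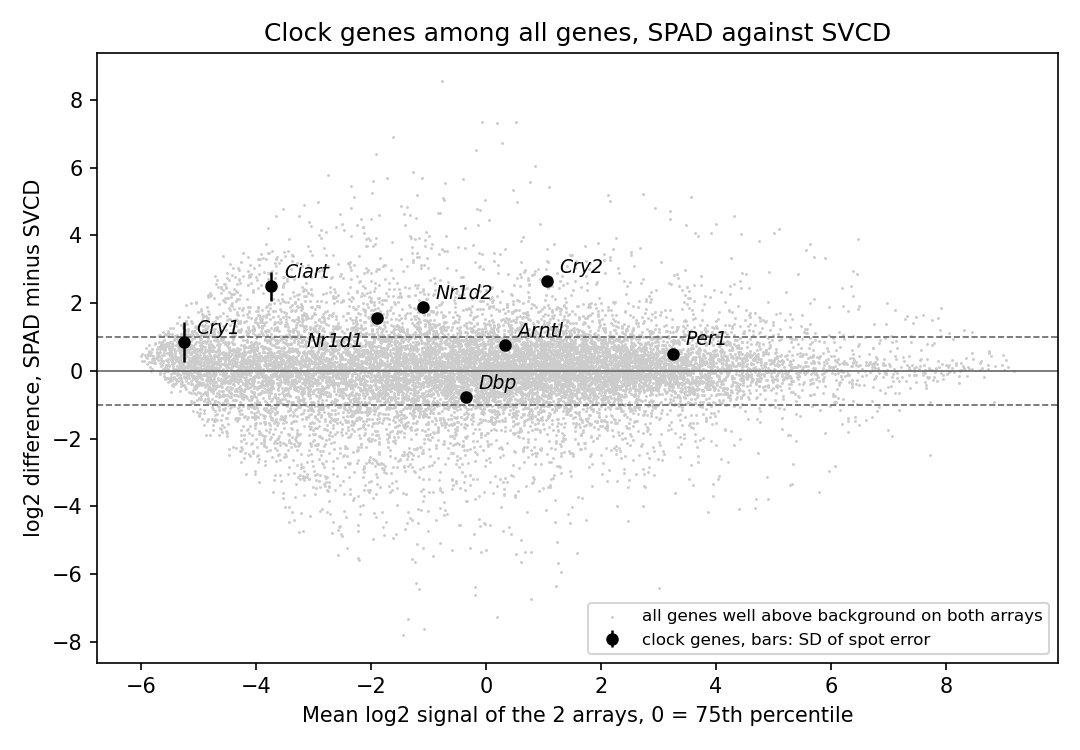
Log2 difference, SPAD minus SVCD, against the mean log2 signal of the 2 arrays (0 at the 75th percentile) for the 14077 genes well above background on both arrays (grey) and the 8 clock genes among them (black, bars show the SD of spot error), with dashed lines at 2-fold. Cry2, Ciart, Nr1d2 and Nr1d1 lie above the upper dashed line, and Dbp is the clock gene below 0.

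A constant shift between the arrays cancels when members are set against each other. The log2 difference of Cry2 exceeded that of Dbp by 3.42 ± 0.12. Against Dbp, the SPAD to SVCD ratio was 9.60 times as large for Ciart (log2 gap 3.26 ± 0.45). It was 6.29 times as large for Nr1d2 (2.65 ± 0.13), 5.05 times for Nr1d1 (2.34 ± 0.17), 2.90 times for Arntl and 2.42 times for Per1. These gaps were larger than spot error. The SD of the log2 differences was 1.14 over the 8 members on both arrays, beside 1.21 over all such genes. These 8 were thus spread no more widely than genes at large. Per2, the lowest member at its bound of -1.67, is not among them. Measured against the median of all genes on both arrays, Cry2 stayed between 2.47 and 2.66 and Nr1d2 between 1.62 and 1.88 over the scalings tried. On the same measure Nr1d1 stayed between 1.17 and 1.51, and Dbp between -0.84 and -0.64. Arntl stayed between 0.67 and 0.75, and Ciart, dim in SVCD, ranged from 0.83 to 2.42.

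**Figure D3:**
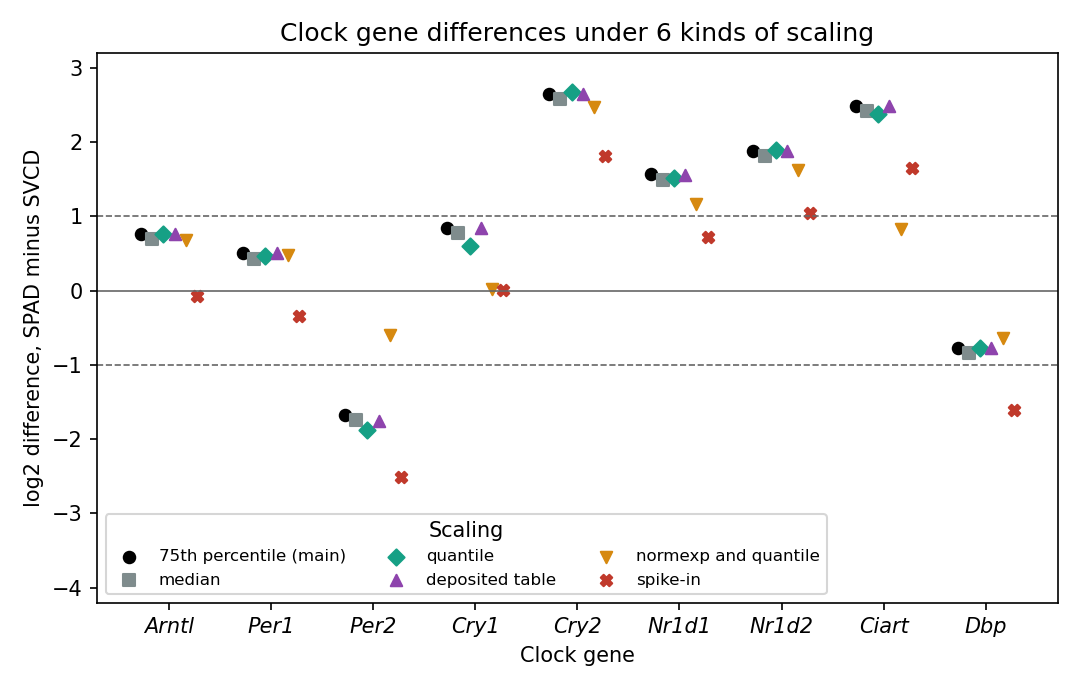
Log2 difference, SPAD minus SVCD, of 9 clock genes under 6 kinds of scaling or processing, with Per2 as a bound except for the deposited table and dashed lines at 2-fold (Per3 is left out because neither array read it well above background). Cry2 and Nr1d2 lie above the upper dashed line in all 6, whereas Arntl and Per1 lie below 0 with spike-in scaling only.

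Beyond the members, 33 other genes tied to the clock were read, and 31 of them were well above background on at least 1 array. At least 2-fold differences were seen for 6 (19.4%) upward and 5 (16.1%) downward, near the 16.3% and 14.1% of all genes, and the median was 0.0066. With spike-in scaling it was 3 upward and 12 downward of the 31, beside 6.44% and 38.3% of all genes. The median was then -0.79, beside -0.77 over all genes. Of these 31, the genes that differed most stood in different roles.

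Of the genes for ROR receptors, whose products activate Arntl at the sites that REV-ERB represses, Rora and Rorb were higher in SPAD. Rora had a signal of 1192 in SPAD and 312 in SVCD, 4.16-fold higher (2.06 ± 0.09), and remained at 1.22 with spike-in scaling. Rorb had 63.7 in SPAD and 19.1 in SVCD on its brighter probe (1.87 ± 0.44), but its other probe gave 0.59 ± 0.59, and with normexp the brighter one gave 0.55. The activating Rora and the repressing Nr1d1 and Nr1d2 were thus all higher in SPAD. The DEC repressor genes Bhlhe40 and Bhlhe41, which compete for E-boxes, were both below 0 and within 2-fold on their brightest probes. Bhlhe40 read 707 in SPAD and 1212 in SVCD (-0.65 ± 0.08). Bhlhe41 read 132 in SPAD and 178 in SVCD (-0.31 ± 0.10), while its other probe was 2.41-fold lower (-1.27 ± 0.15). With spike-in scaling the brightest probes of Bhlhe40 and Bhlhe41 came to -1.49 and -1.15, both past 2-fold.

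Among 11 kinases, ubiquitin ligases and partners of clock proteins, 1 (9.09%) was higher in SPAD past the 2-fold limit and 2 (18.2%) were lower. The shares over all genes were 16.3% and 14.1%. With spike-in scaling it was 0 higher and 5 lower, beside 6.44% and 38.3% of all genes. The deacetylase gene Sirt1 had 1458 in SPAD and 584 in SVCD, 2.72-fold higher. With spike-in scaling Sirt1 came to 0.61. Usp2, a deubiquitinase gene under clock control, had 33.8 in SPAD and 224 in SVCD, 6.08-fold lower (-2.60 ± 0.15). Timeless, needed for DNA replication forks in mammals, had 129 in SPAD and 713 in SVCD, 5.06-fold lower (-2.34 ± 0.09). Its dimmer probe was 5.12-fold lower at its bound. On their brightest probes, the kinase genes that mark PER proteins for turnover were close to even, at 0.24 for Csnk1d and 0.08 for Csnk1e. Both turned negative with spike-in scaling (-0.60 and -0.76). The dimmer Csnk1d probe was 1.82-fold higher (0.87 ± 0.08). The ligase gene Fbxw11 was at 0.12, its relative Btrc at -0.72 and the PER partner gene Nono at -0.45. The dimmer Btrc probe was 2.34-fold lower (-1.23 ± 0.44). For Gsk3b (-0.43) and Csnk2a1 (0.92) the probes disagreed in sign, ranging from -0.89 to 0.31 and from -0.85 to 0.92. Fbxl21, whose product binds cryptochromes, was well above background in SVCD alone, with no bound above 1-fold.

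Of 12 genes known as clock-controlled outputs, 1 (8.33%) was higher in SPAD past the 2-fold limit and 3 (25%) were lower past it. The shares over all genes were 16.3% and 14.1%, and the median of the 12 was -0.03. With spike-in scaling 1 was higher and 5 lower, beside 6.44% and 38.3% of all genes. Nampt, the rate-limiting enzyme of NAD salvage, had a signal of 10204 in SPAD and 2207 in SVCD, 5.04-fold higher (2.33 ± 0.08). It stayed past 2-fold with spike-in scaling. Wee1, the kinase that holds cells before mitosis, had 214 in SPAD and 741 in SVCD, 3.17-fold lower (-1.66 ± 0.09). Noct (nocturnin) had 1100 in SPAD and 2983 in SVCD, 2.49-fold lower. Alas1, the first enzyme of haem synthesis, had 9134 in SPAD and 21034 in SVCD, 2.11-fold lower, while its dimmer probe was 1.76-fold lower, short of the limit. With the mean over probes, 2 of the 12 were lower past the limit. The other 8 lay between -0.92 (Dtx4) and 0.42 (Lonrf3, whose dimmer probe gave 1.40), with Tspan4 at -0.46, Cirbp at -0.06, Leo1 at 0.01, Coq10b at 0.13, Lpin1 at 0.25 and Por at 0.37. The 4 of these that lie above 0.1 turned negative with spike-in scaling.

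**Figure D4:**
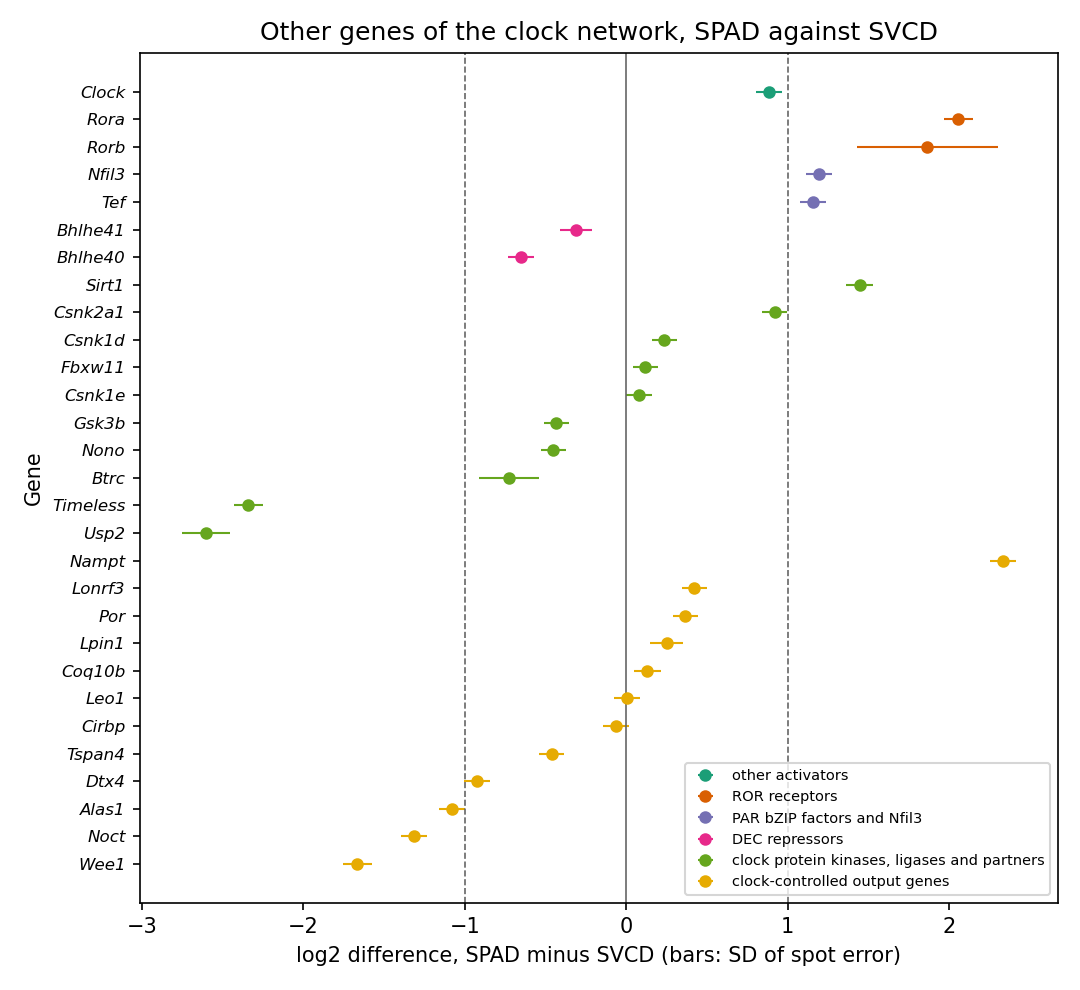
Log2 difference, SPAD minus SVCD, of the 29 other clock-related genes well above background on both arrays, each read from its brightest probe and grouped by role (colours), with bars for the SD of spot error and dashed lines at 2-fold. Nampt, Rora and Rorb lie farthest to the right, and Usp2 and Timeless farthest to the left.

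The populations also differed in the markers of the cell types they could hold, read from their brightest probes. Adipocyte markers were at least 2-fold higher in SPAD for 6 of 7 and lower for 1 (Lpl), with summed signals of 122517 in SPAD and 52743 in SVCD, and Lep was near background on both. Fabp4 alone made up most of that sum, and without it the sums were 14021 in SPAD and 21487 in SVCD. Nearly all of the latter was Lpl, which read 2806 in SPAD and 20821 in SVCD. Endothelial markers were at least 2-fold higher for 7 of 8 (summed 17758 in SPAD, 5092 in SVCD). The exception was Kdr, with 2090 in SPAD and 3202 in SVCD (-0.49 ± 0.08), most of the SVCD sum. Its other probe was 3.83-fold lower in SPAD (-1.94 ± 0.03). Macrophage markers were at least 2-fold lower for 5 of 7 (22013 in SPAD, 91455 in SVCD), mesothelial ones for 4 of 7 (1259 in SPAD, 11699 in SVCD) and smooth muscle ones for 4 of 5 (15373 in SPAD, 213352 in SVCD). All 7 cell division markers well above background were at least 2-fold lower, with summed signals of 2291 in SPAD and 31211 in SVCD. No marker list was at background as a whole on either array; single markers not well above background in SPAD alone were Fcgr1, Lrrn4 and Upk3b, and Aurkb was at background on both. The part of these shifts in the clock gene differences was not tested.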

How the data were processed

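Each population was read on 1 single-colour Agilent array; the submitters' processing notes name Agilent Feature Extraction, version 10.7.3.1, as the authors' software. The deposited array files give each spot's processed intensity, background-subtracted and not scaled between arrays, per the file headers. The deposited value table is on a log2 scale with every probe centred on the 2 arrays, so that only its differences can be read (column medians 0.16 for SPAD and -0.16 for SVCD). Its differences equal those of the log2 processed intensity plus a constant of 0.12, which lies within 0.01 of the shift that 75th percentile scaling gives (0.13), so as an alternative it is nearly the main values again. Its direction and scale are thus known.

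Control spots and outlier spots (73 on the SPAD array, 85 on the SVCD array) were left out and repeat spots averaged, leaving 39425 probes, of which 27506 were named through their transcript in the RefSeq gene table (GRCm38.p6). Values are log2 intensity minus the array's 75th percentile. A gene was read from its brightest probe. A gene well above background on 1 array is given as a bound against the higher of its own dim signal and the lowest signal well above background there. Brighter signals can also fail that call, so such a bound is not a firm limit. Spot error was pooled by signal over probes printed 10 times, and its SD per spot was 0.45 below a signal of 8 and 0.06 above 2048. No non-control spot was saturated. Normexp (limma 3.58.1, offset 50) used the median spot signal, since the files used here hold no mean signal. The other alternatives were spike-in, median and quantile scaling, outlier spots kept, the mean over probes, no filter on dim probes, and limits of 1.5-fold and 4-fold. The functions were tested on simulated data with changes set only in probes of a mean signal above 512. Dim genes and bounds were thus not covered. All members and all genes of the 6 clock-related lists are named, and of the other lists up to 4 genes with the largest absolute difference are named. Fabp4, Lpl, Lep, Kdr, Aurkb and Upk3b were named after their values were seen. A pair of genes was taken out of these lists after their values were seen, because they are not reported here. The members and all lists were chosen with earlier results of these data known. The number of arrays limits the precision, since p-values and replicate errors cannot be had from 1 array per group.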

Additional observations from a re-analysis of the deposited data

How the results depend on the processing

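No paired analysis was possible because each group had 1 array, and for the same reason no array could be left out. The counts of members at least 2-fold higher (4) and lower (1) kept their values with median scaling, quantile normalization, the deposited table (nearly the main values again), outlier spots kept, the mean over probes and no filter on dim probes. Spike-in scaling gave 3 higher and 2 lower and a members' median of 0.0047 (all genes: 1007 higher, 5991 lower), against 0.84 in the main values. Normexp gave 3 higher and 0 lower, a median of 0.68 and 2884 genes at least 2-fold apart in all, against 4753 in the main values; its added offset shrinks the differences of dim probes. At 1.5-fold, 6 of the 9 members were higher and 2 lower, and 7782 of all 15626 genes were apart in either direction. At 4-fold, 2 of the 9 were higher (Cry2 and Ciart) and 0 lower, and 1721 of all 15626 genes were apart in either direction. At these limits the shares of all genes were not split by direction, so the member counts have no like share beside them. Under spike-in scaling Arntl and Per1 changed sign, to -0.08 and -0.34, since it lowers every gene's difference by 0.84. Signal over background limits Cry1, Per2, Per3 and, in SVCD, Ciart.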

Other observations

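Genes known to respond to glucocorticoids, such as dexamethasone, or to cyclic AMP, which IBMX raises, did not follow a single pattern. Of 8 known glucocorticoid-induced genes, 1 passed the 2-fold limit upward in SPAD and 0 passed it downward, beside 16.3% and 14.1% of all genes. Their median log2 difference was 0.12. With spike-in scaling 1 passed upward and 3 downward, beside 6.44% and 38.3% of all genes. The median was then -0.72, beside -0.77 over all genes. With normexp 0 passed either way, beside 8.79% and 9.66% of all genes. Klf15, a factor of fat and muscle metabolism, was the higher one, 3.79-fold at its bound, although with normexp the bound was 0.48. The glucocorticoid receptor chaperone gene Fkbp5 was at -0.95 ± 0.08, Tsc22d3 (GILZ) at -0.86 ± 0.08 and the kinase gene Sgk1 at -0.59 ± 0.08. Of 8 cyclic AMP-induced genes, 7 were well above background on at least 1 array. Of the 7, 4 (57.1%) passed the limit upward and 1 (14.3%) downward, beside 16.3% and 14.1% of all genes. The median of the 7 was 1.03. With spike-in scaling it was 2 upward and 2 downward (median 0.19), beside 6.44% and 38.3% of all genes. With normexp it was 2 and 1 (median 0.72), beside 8.79% and 9.66%.

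The phosphodiesterase gene Pde4b, whose product breaks down cyclic AMP, had a signal of 854 in SPAD and 83.6 in SVCD, 11.2-fold higher (3.48 ± 0.14), and 8.90-fold higher on another probe. Crem, a cyclic AMP-responsive factor that also represses its own targets, had 1236 in SPAD and 364 in SVCD (3.70-fold higher), against 0.83 on a dimmer probe. Pde4d was 2.57-fold higher. Fos, an immediate early gene, had 701 in SPAD and 2051 in SVCD, 2.68-fold lower (-1.42 ± 0.03). With spike-in scaling Pde4b and Crem stayed past 2-fold, at 2.64 and 1.05, and Pde4d came to 0.52.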
